A study of Danio rerio with 2 samples.

Results

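Fatty acids are made, lengthened, desaturated and activated by small families of enzymes, and the zebrafish genome carries several paralogues of most of them. The genes described here are the 64 of the 24539 genes in the authors' table whose symbol, read without regard to case, begins with elovl, fads, acsl, acot, acox, hacd, tecr, cpt1 or fabp, or is scd, scdb or fasn. They were selected on the symbol alone, but the families were proposed with the levels of these genes in both organs known, so those levels are a description. A further 4 identifiers with a matching symbol (FABP6, fabp1b.2, a second FABP7 and a second TECR) were not analysed here. The samples were the testes and the ovaries of adult wild-type zebrafish, with 1 library per organ and 3 adults pooled in each library, and the study compared the 2 organs for sex-biased genes and pathways. Expression was given as FPKM, which scales the fragments of a gene to its length and to the library's total, and the read counts behind the values are not known here. With no replicate libraries, differences are described by their size and none was tested.

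Fatty acid synthase builds palmitate from malonyl-CoA. In the endoplasmic reticulum a cycle of condensation, reduction, dehydration and a second reduction then lengthens an activated fatty acid by a 2-carbon unit, and desaturases add double bonds. Acyl-CoA synthetases attach coenzyme A to free fatty acids, acyl-CoA thioesterases remove it, carnitine palmitoyltransferase 1 commits long chains to mitochondrial oxidation, and peroxisomal oxidases begin the shortening of very long chains. Fatty acid binding proteins carry fatty acids through the cytosol. Eggs store lipid for the embryo, and the membranes of sperm and eggs are rich in polyunsaturated fatty acids.

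A gene was classed as higher in one organ when (FPKM + 1) was at least 2-fold higher there and its level there was at least 1 FPKM. Adding 1 shrinks the ratio of low genes, so plain ratios of FPKM are given as well, except against the table's smallest value of 0.01, which was read as a floor. Of the 64 genes, 51 reached 1 FPKM in at least one library. Among these 51, testis was higher for 20 (39.2%), ovary for 12 (23.5%), and 19 lay within 2-fold. The background over all 19053 genes that reached 1 FPKM was 45.1% higher in testis and 16.6% higher in ovary. On the log2(FPKM + 1) scale, the median difference of testis from ovary over these 51 was 0.59 (quartiles -0.76 and 1.74), against 0.80 over all genes that reached 1 FPKM (quartiles -0.51 and 1.80). The members' share was below the background for testis and above it for ovary, but under the 4-fold rule it was above for testis too (23.5% against 21.6%). In several families different genes were abundant in the 2 organs. The division between organs moved with the scaling of the libraries. With the median ratio of all genes set to 0 it became 16 higher in testis and 20 in ovary, and with a trimmed mean of log ratios 16 and 18. The testis share of the classed members thereby went from 62.5% to 44.4% and 47.1%, and that of all classed genes from 73.1% to 49.6% and 50.6%. All 12 genes higher in ovary and 16 of the 20 higher in testis kept their class under these scalings and under equal totals without the most abundant genes. The 4 that did not are ACOT13, ELOVL2, HACD2 and FASN. With the other pseudocounts and minimum levels tried as well, 9 of the 20 and 9 of the 12 kept their class throughout. Plain ratios below are on the deposited scale. Many of the large ones, those of ELOVL3, scdb, ACSL1, fabp10a and acot15 among them, rest on a value under 1 FPKM in the lower organ. Their size is therefore uncertain.

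**Figure D1:**
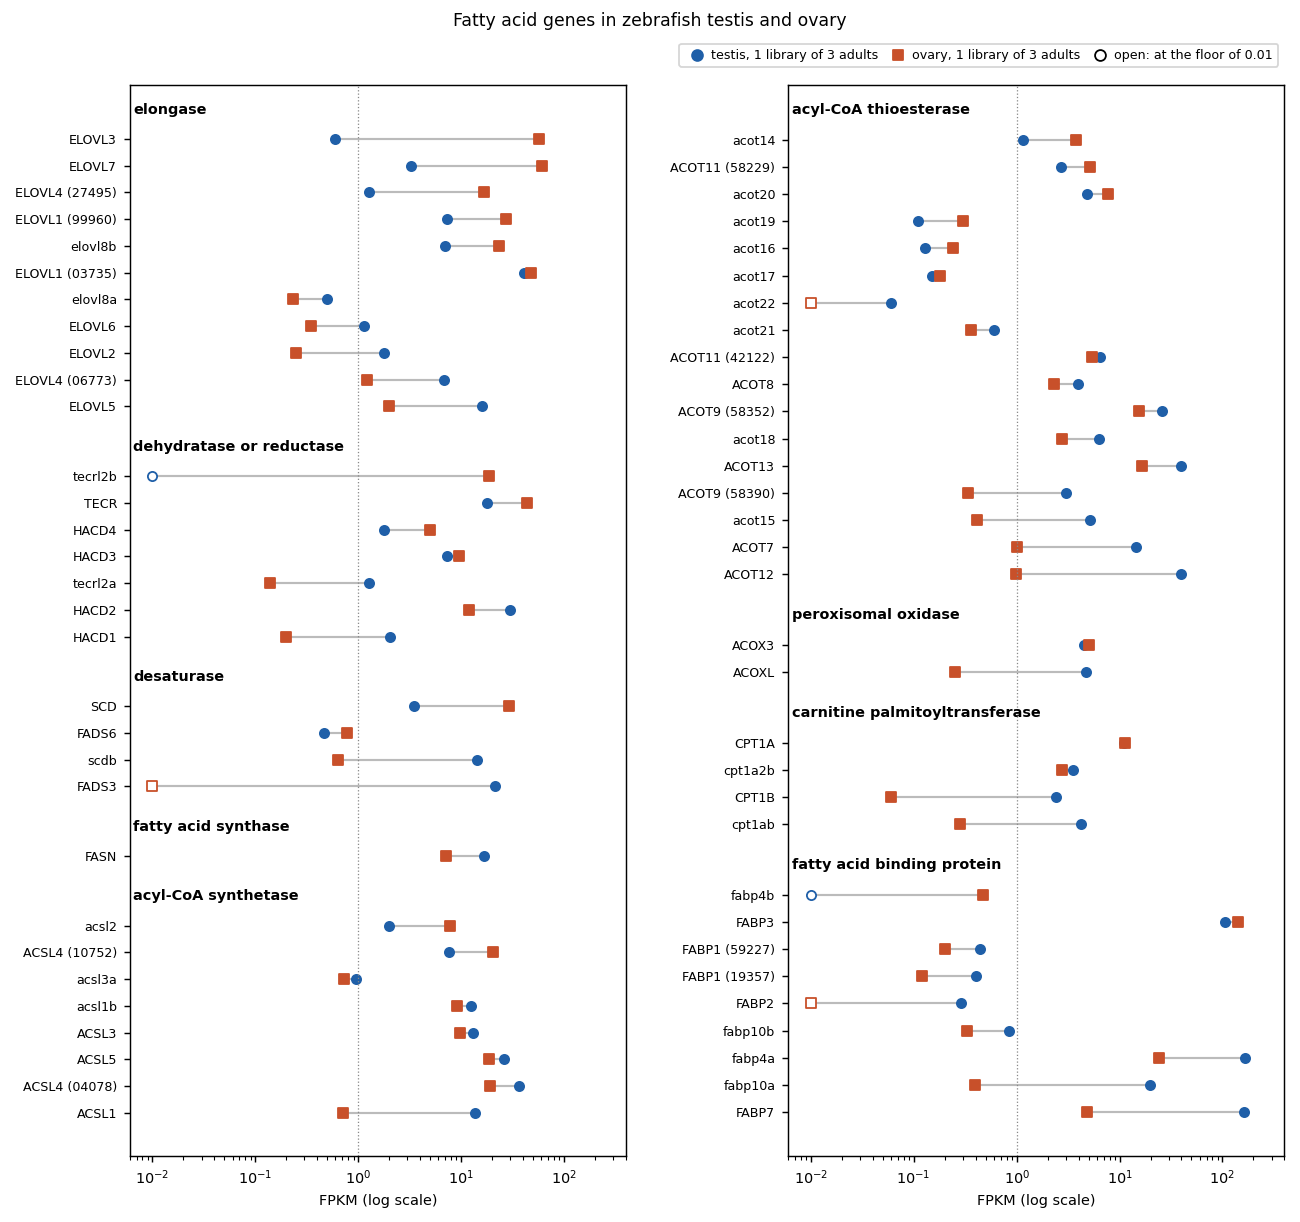
FPKM of 63 of the 64 genes in the testis library (blue circles) and the ovary library (orange squares) on a log axis, grouped by role and ordered by log2 ratio; open symbols are at the floor of 0.01, the dotted line marks 1 FPKM, and the last 5 digits of the identifier tell rows with the same symbol apart. ELOVL3, ELOVL7, SCD and tecrl2b lie far to the ovary side, and FADS3, scdb, ACOT12 and FABP7 far to the testis side.

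Germ cell markers matched the labels of the 2 libraries. All 8 oocyte markers were higher in ovary (8486 FPKM in sum against 30.6 in testis), and all 7 measured markers of meiotic and later male germ cells were higher in testis (2461 against 67.5). Sertoli markers summed to 1530 FPKM in testis and 21.0 in ovary. Leydig markers summed to 5995 and 146, most of the former from insl3 (5225) and most of the latter from a CYP11A1 row that was higher in ovary (105 against 9.87). The follicle cell markers were low in both (8.60 and 6.88), and of the 4 rows that reached 1 FPKM, 2 were higher in each organ. CYP19A1 (0.01 against 2.04 FPKM) and an FOXL2 row (1.23 against 3.61) were higher in ovary, while FSHR (4.72 against 0.07) and lhcgr (1.81 against 0.13) were higher in testis. Under 1 FPKM in both were the other FOXL2 row (0.01 in testis, 0.73 in ovary) and NR5A2 (0.82 and 0.30). Which cells gave the FSHR and lhcgr values in testis is not known here, so the list does not measure follicle cells. Of the 6 markers in each of the endothelial and erythrocyte lists, 4 and 5 were measured. All 4 endothelial genes and all 5 erythrocyte rows that reached 1 FPKM were higher in testis, beside a background of 45.1%. Of 11 macrophage rows that did, 5 (45.5%) were higher in testis and 2 (18.2%), both MFAP4, in ovary. These shares lay near the 45.1% and 16.6% of all genes. The macrophage sums of 168 and 35.1 FPKM rested mostly on cd74a (118 and 5.21). In such mixed organs, fewer cells of a type and less RNA per cell cannot be told apart.

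Elongases catalyse the first step of the cycle, and as a family they were more abundant in ovary. Their 11 genes summed to 236 FPKM in ovary and 86.6 in testis, a plain ratio of 2.72. Of the 10 that reached 1 FPKM, ovary was higher for 5 (50%), testis for 3 (30%) and 2 lay within 2-fold. The backgrounds were 16.6% for ovary and 45.1% for testis. The median of the 10 log2 ratios was -0.91. That median was negative under every alternative tried for the group, from -0.22 with no minimum to -1.92 with the median ratio set to 0.

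ELOVL7 was the most abundant elongase of the ovary library, at 60.4 FPKM against 3.25 in testis, an 18.6-fold difference. ELOVL3, at 56.5 FPKM in ovary and 0.59 in testis, had the largest difference of the family, 95.8-fold. In mammals both of these elongases act mainly on saturated and monounsaturated chains. In the ovary library ELOVL3 was above 92.6% of all genes, and in the testis library above 18.5%. The symbols are of the human style and rest on the gene name table, so the zebrafish paralogue behind each is given here only by its identifier (ENSDARG00000069279 for ELOVL7 and ENSDARG00000038639 for ELOVL3).

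Rows that share the symbol ELOVL4, an elongase of very long chains, went in opposite directions. ENSDARG00000027495 had 16.8 FPKM in ovary and 1.26 in testis, 13.3-fold higher in ovary. ENSDARG00000006773 stood at 6.77 in testis and 1.22 in ovary, 5.55-fold higher in testis. The rows named ELOVL1, whose product lengthens saturated and monounsaturated chains, also differed from each other. ENSDARG00000103735 read 41.1 FPKM in testis and 48.0 in ovary, under 2-fold apart, although both rescalings above put it among the genes higher in ovary. ENSDARG00000099960 read 7.31 and 27.0 FPKM, 3.69-fold higher in ovary. The remaining ovary gene, elovl8b, read 23.1 FPKM in ovary and 6.92 in testis, 3.34-fold higher, while its paralogue elovl8a was under 1 FPKM in both (0.23 and 0.50).

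ELOVL5, which lengthens polyunsaturated chains, had 16 FPKM in testis and 2 in ovary, 8-fold higher. ELOVL2, which acts on longer polyunsaturated chains, stood at 1.76 and 0.25, and left the testis class under both rescalings. ELOVL6, which lengthens palmitate, was low in both organs (1.14 in testis, 0.35 in ovary). The make-up of the family therefore differed between the libraries. In testis a single ELOVL1 row held 47.5% of the summed elongase FPKM and ELOVL5 held 18.5%. In ovary ELOVL7, ELOVL3 and that ELOVL1 row held 25.6%, 24.0% and 20.4%, while ELOVL5 held 0.848%.

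**Figure D2:**
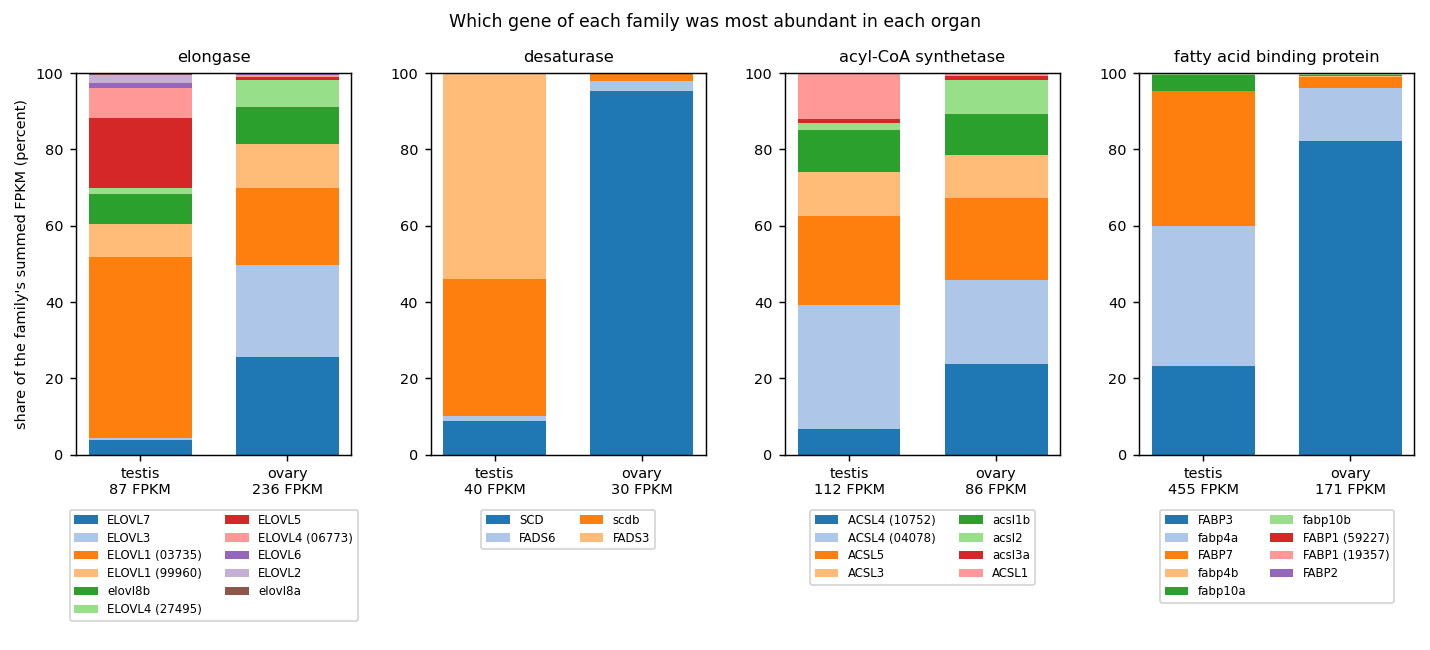
Share of each gene in the summed FPKM of its family, in percent, for elongases, desaturases, acyl-CoA synthetases and fatty acid binding proteins; each bar is 1 library, with the family's sum under it. SCD makes up 95.3% of the desaturase sum in ovary and 8.86% in testis, and FABP3 82.3% and 23.1% of the binding protein sum.

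The later steps of the cycle did not all follow the elongases. The first reduction is carried out by the product of hsd17b12, which the symbol rule does not cover and which comes from the list of microsomal and sphingolipid genes. HSD17B12 had 94.2 FPKM in ovary and 5.43 in testis, 17.4-fold higher in ovary, and hsd17b12b at 37.9 and 17.9 (2-fold or more higher in ovary as well). Summed over genes, this step read 132 FPKM in ovary and 23.4 in testis.

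Dehydration, by the hacd genes, was the step with the lower sum in ovary, 26.8 FPKM against 41.1, but the median and trimmed mean scalings turned this order round (54.8 and 52.8 against 41.1). HACD2, the most abundant dehydratase of both libraries, read 30.1 FPKM in testis and 12.0 in ovary, 2.50-fold higher in testis, but under 2-fold after both rescalings. HACD1, a dehydratase known from muscle, read 2.02 and 0.20. HACD3 differed by less than 2-fold (7.20 in testis, 9.54 in ovary), although both rescalings put it among the genes higher in ovary. HACD4 was higher in ovary (5 against 1.78, 2.81-fold).

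The genes counted under the final reduction were again higher in sum in ovary, 62.4 FPKM against 19.0. They are TECR and the reductase-like tecrl2a and tecrl2b, and whether the latter act in the cycle is not known here. TECR, the trans-2-enoyl-CoA reductase of the cycle, had 43.7 FPKM in ovary and 17.7 in testis, 2.47-fold higher. The reductase-like gene tecrl2b stood at 18.6 FPKM in ovary and at the floor of 0.01 in testis, so no ratio is given. Its paralogue tecrl2a had the opposite order at a low level, 1.27 in testis and 0.14 in ovary, just under the 2-fold limit with a log2 ratio of 0.99.

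Desaturases showed a near exchange of genes between the organs. Stearoyl-CoA desaturases place the first double bond into saturated chains to make monounsaturated ones such as oleate. SCD had 29.1 FPKM in ovary and 3.50 in testis, 8.31-fold higher in ovary. Its paralogue scdb had 14.2 FPKM in testis and 0.64 in ovary, 22.2-fold higher in testis. The row with the symbol FADS3, a name of the family of front-end desaturases that act in polyunsaturated fatty acid and sphingolipid synthesis, stood at 21.3 FPKM in testis and at the floor of 0.01 in ovary. This row, ENSDARG00000019532, was above 79.3% of all genes in testis. The RefSeq table names fads2 and fads6 but no fads3 in zebrafish, so which desaturase the row holds is uncertain. FADS6 was under 1 FPKM in both libraries (0.46 and 0.77). The family sums were 39.5 FPKM in testis and 30.5 in ovary, and under the median and trimmed mean scalings the ovary sum was the higher (62.4 and 60.2). FADS3 and scdb held 54.0% and 35.9% of the testis sum and SCD 95.3% of the ovary sum, and the 3 genes kept their class under every alternative tried, the 4-fold rule included.

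FASN, the synthase that supplies palmitate to these steps, read 16.6 FPKM in testis and 7.11 in ovary. The 2.34-fold difference was just past the limit (log2 ratio 1.12) and fell under it with a pseudocount of 5, with the 4-fold rule and under each of the scalings.

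**Figure D3:**
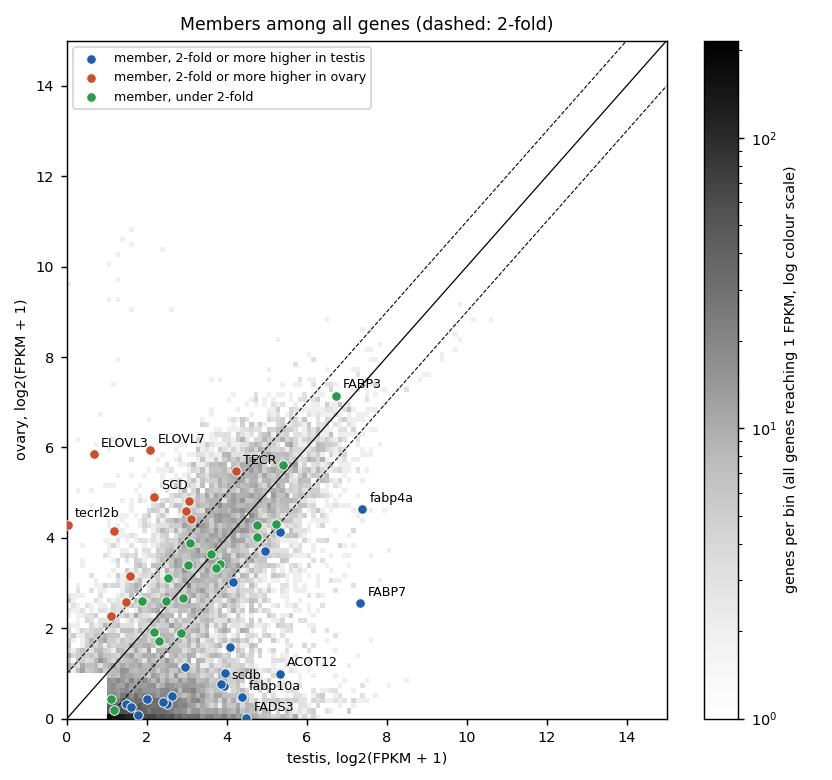
Testis against ovary, both as log2(FPKM + 1), for the members that reached 1 FPKM (coloured points by class) over all 19053 genes that did (grey, genes per bin on a log colour scale); the solid line is equality and the dashed lines are 2-fold. FABP3 lies near equality at a high level, and FADS3 and tecrl2b lie on the axes because 1 of their values is at the floor.

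Acyl-CoA synthetases of the long-chain family were mostly at like levels in the 2 organs. Of the 7 that reached 1 FPKM, 4 differed by less than 2-fold, testis was higher for 1 (14.3%) and ovary for 2 (28.6%). The backgrounds were 45.1% and 16.6%. The family's median log2 ratio was 0.41, turning to -0.54 under the median scaling and to -0.49 under the trimmed mean. ACSL5 read 25.96 FPKM in testis and 18.5 in ovary, ACSL3, which acts at lipid droplets, 13.1 and 9.64, and acsl1b 12.3 and 9.10. The ratio of testis to ovary was thus between 1.36 and 1.40 for these 3 genes.

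The rows with the symbol ACSL4, a synthetase that prefers arachidonate in mammals, differed from each other. ENSDARG00000004078 read 36.3 FPKM in testis and 18.9 in ovary, 1.92-fold apart and just under the limit on the scale used. ENSDARG00000010752 read 7.63 and 20.3, 2.66-fold higher in ovary. The largest difference of the family was that of ACSL1, at 13.6 FPKM in testis and 0.71 in ovary, 19.1-fold. Its paralogue acsl1b was near equality, as given above. The gene acsl2 was higher in ovary (7.85 against 1.99, 3.94-fold), and acsl3a was under 1 FPKM in both (0.96 and 0.72).

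Acyl-CoA thioesterases, the largest family with 17 rows, were mostly at low levels. In all, 5 rows did not reach 1 FPKM in either library, namely acot16, acot17, acot19, acot21 and acot22, with values from 0.01 to 0.60. Of the other 12, 5 (41.7%) were higher in testis, 1 (8.33%) in ovary and 6 lay within 2-fold, beside backgrounds of 45.1% and 16.6%. The median log2 ratio of these 12 rows, 0.85, lay near the 0.80 of all genes. It was -0.03 after the median scaling and 0.01 after the trimmed mean.

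ACOT12, which in mammals releases acetate from acetyl-CoA in the cytosol, was the thioesterase with the largest difference. It had 39.3 FPKM in testis and 0.99 in ovary, 39.7-fold higher in testis. ACOT7, a cytosolic long-chain thioesterase that is abundant in mammalian brain, stood at 14.4 and 1.00, 14.4-fold higher. ACOT13, a thioesterase linked to mitochondria, was abundant in both libraries, at 39.4 FPKM in testis and 16.4 in ovary, 2.40-fold apart. The gene acot15 read 5.14 and 0.41, 12.5-fold higher in testis.

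The rows named ACOT9, a mitochondrial thioesterase, differed from each other. ENSDARG00000058352 read 26.1 FPKM in testis against 15.3 in ovary, and ENSDARG00000058390 read 3 and 0.34, 8.82-fold apart. The first lay within 2-fold, and its log2 ratio of 0.73 turned to -0.26 under the median scaling and -0.20 under the trimmed mean. The rows named ACOT11 both differed by less than 2-fold, ENSDARG00000042122 with 6.52 and 5.37 FPKM and ENSDARG00000058229 with 2.70 and 5.11. ACOT8, a peroxisomal thioesterase, read 3.95 in testis and 2.29 in ovary, and acot20 read 4.81 and 7.70. Both rescalings put acot20 and ACOT11 ENSDARG00000058229 among the genes higher in ovary. The gene acot14 was the thioesterase higher in ovary (3.80 against 1.16, 3.28-fold), and acot18 stood at 6.28 in testis and 2.74 in ovary with a log2 ratio of 0.96, just under the limit. In the RefSeq gene order of the assembly GRCz12tu, acot14, acot16, acot17 and acot18 lie together with at most 1 protein-coding gene between neighbours, acot20 lies beside acot21, and the acot9 genes lie side by side. For near-identical neighbours it is uncertain how reads were split between them.

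Peroxisomal acyl-CoA oxidases and carnitine palmitoyltransferases both included a gene at a like level in the 2 organs and a gene that was low in ovary. ACOX3, an oxidase of branched chains, read 4.53 FPKM in testis and 5.06 in ovary, within 2-fold, although the median scaling put it among the genes higher in ovary. ACOXL, named for its likeness to the acyl-CoA oxidases, read 4.71 and 0.25, 18.8-fold higher in testis. It left the testis class with a pseudocount of 5 and with a minimum of 5 FPKM.

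Among the carnitine palmitoyltransferases, CPT1A, the form known from liver, was equal within 1.02-fold at 11.1 FPKM in testis and 11.4 in ovary. The gene cpt1a2b read 3.55 and 2.75. CPT1B, the form known from muscle, read 2.40 FPKM in testis and 0.06 in ovary, 40.0-fold, and cpt1ab read 4.26 and 0.28, 15.2-fold. These ratios rest on ovary values under 1 FPKM. CPT1B and cpt1ab left the testis class with a pseudocount of 5 and with a minimum of 5 FPKM, and CPT1B also with the 4-fold rule. CPT1A made up 52.2% of the summed FPKM of this family in testis and 78.7% in ovary. The skeletal muscle markers summed to 130 FPKM in testis and 10.7 in ovary. Of the 6 rows that reached 1 FPKM, 5 (83.3%) were classed to testis, beside a background of 45.1%. The remaining 1 (16.7%, beside 16.6%) was classed to ovary, a TNNT3 row at 2.04 in testis and 6.61 in ovary. The highest marker was atp2a1 at 67.8 and 1.02, and pvalb1 and the other TNNT3 row were at the floor in ovary. The part of skeletal muscle in the CPT1B value was not tested.

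Fatty acid binding protein genes held the most abundant members, and their sum was 455 FPKM in testis against 171 in ovary. The median and trimmed mean scalings brought the ovary sum to 350 and 337, nearer to that of testis. Of 9 rows, 4 reached 1 FPKM, and 3 of these (75%) were higher in testis, beside a background of 45.1%. FABP3, known from heart muscle, was the most abundant member of the ovary library, at 141 FPKM against 105 in testis, and was above 97.7% and 96.6% of all genes there. The difference was under 2-fold on the deposited scale, while the median and trimmed mean scalings put it among the genes higher in ovary. The gene fabp4a, whose mammalian counterpart marks adipocytes, was the most abundant member of the testis library, at 167 FPKM against 23.9 in ovary, 6.99-fold higher. FABP7, known from glia and the brain, followed at 161 FPKM in testis and 4.88 in ovary, 33.0-fold higher. In testis these 2 genes held 36.7% and 35.4% of the family's sum, and in ovary 14.0% and 2.86%.

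The gene fabp10a, a standard marker of zebrafish hepatocytes, had 19.7 FPKM in testis and 0.39 in ovary, a 50.4-fold difference. All 10 genes of the hepatocyte marker list were also higher in testis, beside a background of 45.1%. They had sums of 94.4 and 2.72 FPKM and none was at the floor, the highest being ahsg1 at 29.99 and 0.21. Their part in the fabp10a value was not tested. FABP2, the intestinal form, read 0.29 FPKM in testis and was at the floor in ovary. The rows of the intestinal list, FABP2 among them, summed to 24.3 and 1.23 FPKM, with 4 of 10 at the floor in ovary (FABP2, chia.2, an ANPEP row and an SLC15A1 row). That ANPEP row gave 16.8 FPKM of the testis sum, and 6 of the 10 rows were under 1 FPKM in both libraries.

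Beside fabp4a, the 9 rows of the adipocyte list summed to 50.7 FPKM in testis and 9.51 in ovary. The highest of them was cfd, at 17.2 and 0.75 FPKM. Next in testis were the LPL rows, at 14.35 and 0.79 FPKM and at 13.81 and 1.29 FPKM. By the size rule, 4 of the 7 rows that reached 1 FPKM (57.1%) were classed to testis and 0 to ovary. The backgrounds were 45.1% and 16.6%. The other 3 lay within 2-fold on (FPKM + 1), namely plin1 (1.56 in testis, 1.19 in ovary), pparg (1.17 and 3.23) and an ADIPOQ row. The plain ratios of pparg and that ADIPOQ row were 2.76 and 2.41, higher in ovary. The adipocyte hormone rows ADIPOQ stood at 0.86 and 0.47 in testis and at 2.07 and 0.17 in ovary, and lepa and CIDEC were at the floor in ovary. The part of adipocytes, or of any other cell type, in the fabp4a value was not tested. The last binding protein genes were under 1 FPKM in both libraries. They are fabp10b (0.85 in testis, 0.33 in ovary), the FABP1 rows ENSDARG00000059227 (0.44 and 0.20) and ENSDARG00000019357 (0.40 and 0.12), and fabp4b, at the floor in testis and 0.47 in ovary.

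Different behaviour of rows that share a symbol was common in the table as a whole. Of 1048 symbols carried by exactly 2 rows that both reached 1 FPKM, 56.6% had their rows in different classes and 13.0% had 1 row higher in testis and 1 higher in ovary. Among the members 5 such pairs reached 1 FPKM. Of these, 4 (ACOT9, ACSL4, ELOVL1 and ELOVL4) had their rows in different classes and ELOVL4 had them in opposite ones. Pairs named by paralogue letters, such as SCD with scdb, are not in this count.

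Other genes of fatty acid metabolism, taken from lists written with earlier results of these data known, were set beside the members by the same rule. The list with the lowest median was mitochondrial beta-oxidation, which shortens fatty acids for energy. Of its 20 genes, 8 (40.0%) were higher in ovary, against the background of 16.6%. Testis was higher for 2 (10%), against 45.1%, and 10 lay within 2-fold on (FPKM + 1). The median log2 ratio of -0.40 stayed negative under every scaling. By the 4-fold rule on (FPKM + 1), none of the 20 was classed in either direction. The backgrounds under that rule were 6.19% higher in ovary and 21.6% higher in testis. The plain ratio of SLC25A20 was 4.05, higher in ovary. ACADM, the medium-chain acyl-CoA dehydrogenase, had 192 FPKM in ovary and 48.8 in testis, 3.93-fold higher, while hadhaa (61.5 in testis, 68.3 in ovary) and ETFB (43.2 and 41.8) were nearly equal. The genes that act directly after CPT1, chosen after their values were seen, were SLC25A20, the carnitine carrier, at 45.7 in ovary and 11.3 in testis, and CPT2 at 21.4 and 9.16. Both were higher in ovary, whereas none of the 4 cpt1 genes was, except CPT1A with the median ratio set to 0.

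Peroxisomal genes were mostly even on the deposited scale, with 11 of 14 within 2-fold on (FPKM + 1). Testis was higher for 3 (21.4%) and ovary for none, beside backgrounds of 45.1% and 16.6%. Both rescalings made this 3 and 4, and equal totals without the most abundant genes made it 3 and 2. The median of 0.36 turned to -0.59 under the median scaling and to -0.54 under the trimmed mean. ACAA1, the peroxisomal thiolase, read 23.6 FPKM in testis and 5.38 in ovary, scp2b 25.9 and 22.1, and ECH1 9.15 and 18.6.

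Malonyl-CoA is the 2-carbon donor for both FASN and the elongases. In the list of its supply and control, 8 of 17 rows (47.1%) were higher in testis and 2 in ovary, close to the background, with a median of 0.85 (0.22 and 0.27 after the rescalings). ACACA, the carboxylase that makes malonyl-CoA in the cytosol, read 30.3 FPKM in testis and 7.33 in ovary, 4.13-fold higher in testis. The citrate carrier gene slc25a1a read 8.75 and 29.4, 3.37-fold higher in ovary, and ACSS2, which activates acetate, read 21.9 and 29.97.

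Among acyl-CoA synthetases of other families, acyl-CoA binding proteins and uptake genes, 7 of 19 rows (36.8%) were higher in testis and 3 (15.8%) in ovary. The backgrounds were 45.1% and 16.6%. The list's median of 0.48 turned to -0.41 under the median scaling and to -0.37 under the trimmed mean. DBI, the acyl-CoA binding protein, read 85.6 FPKM in testis and 23.8 in ovary, ACSF2, a synthetase of medium chains, 3.36 and 35.5, and ACSBG2 20.5 and 16.3. ACSF2 was thus 10.6-fold higher in ovary, a larger ratio than that of any of the acsl genes in that direction.

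Glycerolipid synthesis and lipid droplet genes had 11 of 23 rows (47.8%) higher in testis, near the background of 45.1%. Ovary was higher for 1 (4.35%, beside 16.6%), AGPAT5 (26.3 against 11.1 FPKM), and the median was 0.97. Both rescalings made the counts 7 and 5, with medians of 0.33 and 0.37. LPIN2, a phosphatidate phosphatase, read 50.3 in testis and 17.8 in ovary, and GPAT4, an acyltransferase of the first step, 21.6 and 30.4. Of 15 regulators, 8 (53.3%) were higher in testis and 1 (6.67%) in ovary (median 1.02), beside backgrounds of 45.1% and 16.6%. The counts became 3 and 3 under both rescalings, with medians of 0.15 and 0.20. The gene higher in ovary on the deposited scale was insig1, a sterol-regulated inhibitor of SREBP processing, at 22.2 FPKM in ovary and 7.16 in testis. The SREBP genes themselves differed by less than 2-fold on (FPKM + 1), with SREBF1 at 11.8 and 5.64 and srebf2 at 12.8 and 14.1 in testis and ovary. The plain ratio of SREBF1 was just past 2-fold, higher in testis. In the list of microsomal electron supply and sphingolipid synthesis, 8 of 22 rows (36.4%) were higher in testis, beside a background of 45.1%. Ovary was higher for 6 (27.3%), beside 16.6%. The median was 0.85, and both rescalings turned the counts to 5 and 7, with medians of 0.09 and 0.14. Apart from HSD17B12, the list's most abundant genes on a single row were DEGS2 (70.6 and 68.1) and SPTLC3 (35.8 and 21.7), both under 2-fold apart.

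**Figure D4:**
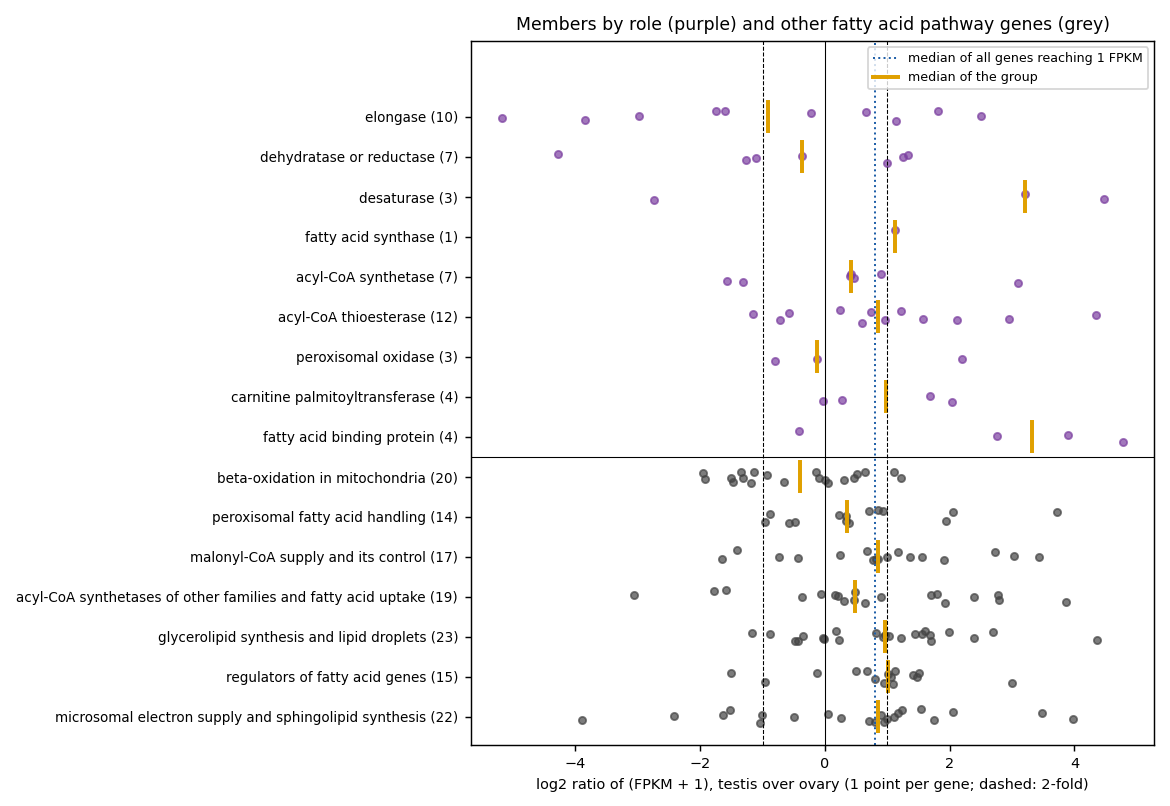
Log2 ratio of (FPKM + 1), testis over ovary, for each gene that reached 1 FPKM, by role of the members (purple) and by list of other fatty acid genes (grey), with the number of genes in brackets; the orange bar is the group's median, the dotted line the median of all genes (0.80), and the dashed lines 2-fold. Elongases have a median of -0.91 and mitochondrial beta-oxidation one of -0.40, while fatty acid binding proteins have one of 3.32 from 4 genes.

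The members together made up 0.171% of the summed FPKM of the testis library and 0.125% of that of ovary. At 10 FPKM or more there were 21 members in testis and 19 in ovary. Among the 30 members that reached this level in either library, 12 (40.0%) were higher in testis and 9 (30%) in ovary, beside 36.1% and 24.5% of the 10444 genes that did so.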

How the data were processed

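The deposited table gives FPKM for testis and for ovary, 1 column each, over 24539 Ensembl identifiers, as the file headers name them. HISAT, Bowtie2, RSEM and the build GRCz10 are named in the submitters' processing notes. The sources used here do not give their settings, the annotation or the use of strand, so reads of overlapping, antisense and near-identical genes may be divided uncertainly. FPKM is relative to gene length and to the library's own total (562394 in testis and 572635 in ovary over the table). In testis 430 genes and in ovary 3540 were at the floor of 0.01. Depth is not given. From the steps between values of 0.1 to 0.6 FPKM (927 genes), 1 read was best read as worth 1.09 times as much in testis as in ovary, with 2.17 as the next candidate.

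A gene name table named 21881 identifiers; capitals mark human-style symbols. Log2 ratios used a pseudocount of 1 FPKM. The size rule and both rescalings were run on simulated data with equally many genes raised in each organ. The deposited values have more genes higher in testis, a case that was not simulated. List genes were matched by symbol, by a RefSeq synonym (assembly GRCz12tu), or without a paralogue letter. The trimmed mean left out 30% of ratios and 5% of abundances at each end, and equal totals left out 186 genes, the 100 most abundant of each library. Members and lists were chosen with earlier results of these data known. The rule named every member (1 is counted but not reported by name here), the 3 most abundant genes of each pathway list whose symbol is on 1 row, and of each marker list its highest gene and those at the floor. Other marker and list genes printed (ADIPOQ, MFAP4, CYP11A1, FSHR, lhcgr and an FOXL2 row among them) were chosen after their values were seen, and the highest and floor genes are not printed for every marker list. Figures and values were made with Python 3.11.15, numpy 2.4.6, pandas 2.3.3 and matplotlib 3.10.9.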

Additional observations from a re-analysis of the deposited data

How the results depend on the processing

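No paired analysis was possible because each organ has 1 library. The members' median log2 ratio of 0.59 was 0.76 with a pseudocount of 0.1, 0.30 with one of 5, 0.30 with no minimum, 0.32 with a minimum of 5 FPKM, 0.49 with equal totals without the most abundant genes and 0.66 over symbols on a single row, and it changed sign under the median scaling (-0.34) and the trimmed mean scaling (-0.30), which raise ovary values by 1.03 and 0.98 on the log2 scale. The count higher in testis, 20, fell to 11 with a pseudocount of 5 and 12 with the 4-fold rule. The count higher in ovary, 12, was 5 with the 4-fold rule and 20 with the median ratio set to 0. The members' share of the library, 0.171% in testis and 0.125% in ovary, was 0.146% and 0.0972% over symbols on a single row and 0.226% and 0.185% without the most abundant genes. No member classed as higher in one organ had its ratio change sign under the alternatives tried. With a pseudocount of 5, 12 members lost their class, and with a minimum of 5 FPKM 7 did. Values under 1 FPKM cannot be placed, because the reads behind them are not known.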
